A study of Mus musculus with 19 samples.

Results

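TRBV4 is a variable segment of the mouse T cell receptor beta (TRB) locus, and its protein product is known as Vβ10. Every entry listed with TRBV4 in the 19 deposited libraries was taken, where an entry is a read count for 1 CDR3 amino acid sequence with its TRBV and its TRBJ segment. These were 161510 of 2146950 entries, between 197 and 396 in a heart library and between 4463 and 21891 in a lymph node library. TRBV4 was selected on its share of reads, which had been seen to differ between node sites and between heart and node. Its levels along those lines are therefore given as a description, without a test.

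The libraries came from sorted CD4+ TCRbeta+ T cells of BALB/c wild-type mice, taken 7 days after surgery or immunisation. Infarcted hearts (n = 3) and mediastinal lymph nodes (MI nodes, n = 3), which drain the heart, were from mice with a ligated left anterior descending coronary artery. Sham nodes (n = 4) were mediastinal nodes of mice that had a thoracotomy without ligation. All operated mice received buprenorphine against pain. Axillary nodes were from mice injected under the skin with porcine cardiac myosin (100 µg, n = 2) or a protein extract of mouse heart (1 mg, n = 3), each emulsified in Titermax Gold adjuvant, or with the adjuvant alone (n = 4). Mediastinal nodes thus always came with chest surgery and axillary nodes always with adjuvant, so node site, surgery and adjuvant cannot be told apart. A node library was made from 500000 cells and a heart library from 5000. The labels give no mouse ages and do not say whether a library is 1 mouse. The p-values below therefore reflect how far these libraries differ from each other, which may be technical. Node libraries held 7534295 to 9235800 reads and heart libraries 2426715, 4400003 and 5126910. Only TRB transcripts were amplified, so the labelled CD4+ identity could not be checked against markers of other cells.

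A TRB chain is assembled in the developing thymocyte by joining a TRBV, a TRBD and a TRBJ segment, and the CDR3 spans that joint. The CDR3 loop lies over the antigen peptide, while the loops encoded wholly by the TRBV segment mostly contact the MHC molecule. In CD4+ cells that is an MHC class II molecule. The start of a CDR3 is written by the TRBV segment, its end by the TRBJ segment, and its middle by TRBD and by nucleotides added or trimmed at the joints. A T cell clone carries 1 such sequence in many cells, so a CDR3 with many reads can reflect many cells or much RNA per cell, which cannot be told apart here.

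The 5 most abundant TRBV4 CDR3s of each heart are shown because together they hold a large part of that heart's TRBV4 reads. They are given as deposited, lacking the cysteine that opens the loop and the phenylalanine that closes it, with the TRBJ segment in the name. Capitals are amino acids.

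Heart 1, rank 1, TRBJ2-3: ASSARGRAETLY
Heart 1, rank 2, TRBJ2-3: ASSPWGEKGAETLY
Heart 1, rank 3, TRBJ1-1: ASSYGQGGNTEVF
Heart 1, rank 4, TRBJ2-1: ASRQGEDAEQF
Heart 1, rank 5, TRBJ2-1: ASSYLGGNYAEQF
Heart 2, rank 1, TRBJ1-1: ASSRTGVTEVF
Heart 2, rank 2, TRBJ1-1: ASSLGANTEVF
Heart 2, rank 3, TRBJ2-1: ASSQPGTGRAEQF
Heart 2, rank 4, TRBJ2-7: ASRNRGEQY
Heart 2, rank 5, TRBJ1-1: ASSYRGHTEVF
Heart 3, rank 1, TRBJ1-2: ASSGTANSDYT
Heart 3, rank 2, TRBJ1-3: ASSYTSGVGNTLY
Heart 3, rank 3, TRBJ1-4: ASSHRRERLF
Heart 3, rank 4, TRBJ2-7: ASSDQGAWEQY
Heart 3, rank 5, TRBJ1-3: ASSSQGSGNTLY

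The TRBV4 CDR3s with the highest median read share among those listed in all 16 node libraries are shown because they are the part of the TRBV4 repertoire that recurred everywhere in the nodes.

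Shared CDR3 1, TRBJ1-1: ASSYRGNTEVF
Shared CDR3 2, TRBJ1-1: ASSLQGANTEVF
Shared CDR3 3, TRBJ2-4: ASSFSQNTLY
Shared CDR3 4, TRBJ2-3: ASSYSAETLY
Shared CDR3 5, TRBJ1-4: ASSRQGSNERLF
Shared CDR3 6, TRBJ1-4: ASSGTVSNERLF

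The first question was how much of each repertoire used TRBV4. The infarcted hearts had the lowest shares, the mediastinal nodes stood between, and the axillary nodes had the highest. TRBV4 held 5.20%, 6.69% and 5.68% of the reads in hearts 1 to 3, and 7.63%, 8.84% and 7.91% in MI nodes 1 to 3. It held 7.85%, 7.72%, 7.81% and 7.99% in the sham nodes. In axillary nodes it held 9.39% and 10.2% after myosin, 9.36%, 9.46% and 9.06% after heart extract, and 10.4%, 10.3%, 9.95% and 9.23% after adjuvant alone. The 95% Wilson interval of heart 1, the library with the fewest reads, was 5.17% to 5.23%. PCR reads without molecular identifiers are not independent molecules, so this interval and those below cover counting error only.

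Mediastinal nodes averaged 7.96% ± 0.402 (SD, n = 7) and axillary nodes 9.71% ± 0.514 (SD, n = 9), and the highest mediastinal library lay below the lowest axillary one. Of the 22 TRBV segments, 9.09% were lower in every mediastinal than in every axillary library, namely TRBV2 and TRBV4, and TRBV16 was higher in every one. Hearts averaged 5.86% ± 0.762 (SD, n = 3) and MI nodes 8.12% ± 0.633 (SD, n = 3), again without overlap. The share of segments that were lower in every heart than in every MI node was 27.3% of the 22, so TRBV4 was 1 of 6. Ordered by group mean, hearts were followed by sham, MI, heart extract, myosin and adjuvant nodes. Neighbouring groups overlapped except hearts with sham nodes and MI with heart extract nodes.

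**Figure D1:**
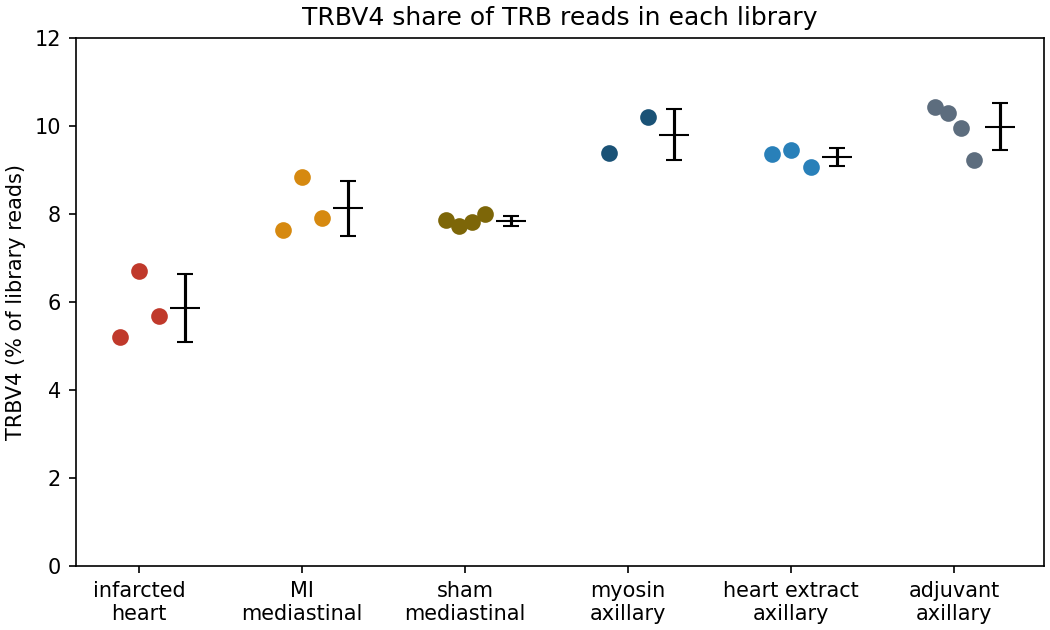
Share of library reads listed with TRBV4 (vertical axis, percent, from 0) in each of the 6 groups. Points are libraries, and the line beside them is the group mean with its SD. Hearts lie between 5.20% and 6.69%, mediastinal nodes between 7.63% and 8.84%, and axillary nodes between 9.06% and 10.4%.

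Both differences in level depended on what was counted. The 100 most abundant CDR3s of a library were set aside as an alternative chosen after seeing the data. Among the remaining reads, TRBV4 held 8.52%, 9.44% and 6.87% in hearts and 7.68%, 8.85% and 8.03% in MI nodes, so the 2 groups overlapped. Among the reads of those 100 CDR3s it held 3.81%, 5.18% and 4.83% in hearts and 5.63%, 8.33% and 3.79% in MI nodes. Hearts 1 to 3 listed 2898, 4153 and 4795 distinct CDR3s in all, and MI nodes 1 to 3 listed 200785, 230684 and 140864. The 100 CDR3s are thus a far larger part of a heart library, so unlike parts of hearts and nodes are compared here. Counted as a share of entries, with every entry weighing the same, TRBV4 made up 6.24%, 8.79% and 6.33% in hearts and 6.77%, 7.51% and 6.74% in MI nodes. Near relatives of a far more abundant TRBV4 CDR3, described below, made up 80.7% to 83.8% of the TRBV4 entries in hearts. In MI nodes they made up 8.35% to 15.0%, so the entry shares weigh such entries unequally. By entries, mediastinal nodes ranged over 6.63% to 8.07% and axillary nodes over 7.75% to 9.92%, which overlapped. Outside the 100 most abundant CDR3s the node sites stayed apart, at 7.68% to 8.85% in mediastinal and 9.32% to 10.8% in axillary nodes.

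Within a node site, no treatment changed the TRBV4 level past the threshold of 0.05. By edgeR's quasi-likelihood test with Benjamini-Hochberg adjustment over 22 segments, the log2 fold change for MI against sham nodes was 0.05 (SE 0.0510, adjusted p = 0.976). Its sign turned without MI node 2, at -0.01. Heart extract against adjuvant nodes gave -0.10 (SE 0.0511, adjusted p = 0.355), and myosin against adjuvant nodes gave -0.03 (SE 0.0579, adjusted p = 0.974), or 0.03 without myosin node 1. In these comparisons 0%, 9.09% and 0% of the segments passed, and 0%, 13.6% and 9.09% had an unadjusted p under 0.05, TRBV4 not among them. The myosin and heart extract nodes, which differed in antigen, differed from each other by 0.08 (adjusted p = 0.860). The effect of MI minus that of heart extract was 0.15 (adjusted p = 0.289). The adjuvant volume was 200 or 600 µl for immunised mice and 200 µl for controls, so volume and antigen cannot be told apart.

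Among the 15 other segments that held at least 0.5% of node reads, the read shares of TRBV2, TRBV17 and TRBV20 followed TRBV4 most closely over the 16 node libraries. Pearson's r was 0.79, 0.77 and 0.59 in that order. The least alike were TRBV16 at -0.90 and TRBV1 at -0.76. All shares come from the same library totals, and these values describe 2 node sites with different levels. Within a site the values differed. TRBV2 had 0.58 among the 7 mediastinal and -0.33 among the 9 axillary libraries, TRBV17 had 0.72 and 0.34, TRBV20 0.33 and 0.69, TRBV16 -0.68 and -0.38, and TRBV1 0.13 and -0.66.

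The second question was which TRBJ segments TRBV4 was joined to. Relative to all other TRBV segments of the same library, TRBV4 was paired 1.79 ± 0.165 times as often with TRBJ1-2 (SD, n = 16 nodes), 1.45 ± 0.160 times with TRBJ1-5, 1.41 ± 0.0893 times with TRBJ2-4 and 1.20 ± 0.119 times with TRBJ1-1. Each of these ratios was above 1 in 16 of 16 node libraries. The ratio was lowest for TRBJ2-5, at 0.624 ± 0.0550, followed by 0.764 ± 0.0771 for TRBJ2-2 and 0.793 ± 0.0610 for TRBJ1-4, each below 1 in all 16. Read the other way, TRBV4 held 14.9% ± 1.88 of the TRBJ1-2 reads of a node but 5.75% ± 0.531 of the TRBJ2-5 reads. The lower TRBV4 share of mediastinal nodes was seen in the group mean with each of the 11 TRBJ segments. With TRBJ1-1, TRBV4 held 8.93% of the reads in mediastinal and 11.9% in axillary nodes. With TRBJ2-5 it held 5.39% and 6.02%.

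TRBJ use within TRBV4 was tested with the TRBV4 total of each library as offset, so that the level of TRBV4 itself did not enter. In MI against sham nodes, 0 of 11 TRBJ segments passed (0% of 240 TRBV-TRBJ pairs passed, and 3.33% had an unadjusted p under 0.05). In heart extract against adjuvant nodes 0 of 11 passed (0% of 240 pairs, 9.58% with an unadjusted p under 0.05), and in myosin against adjuvant nodes also 0 (0% of 240 pairs, 3.75% with an unadjusted p under 0.05). Of the 11 TRBV4 pairs themselves, 0, 4 and 1 had an unadjusted edgeR p under 0.05 in these comparisons, in the order given. The smallest adjusted p for TRBV4 in edgeR was 0.920, 0.398 and 0.952 in that order. Nearest to the threshold in MI against sham nodes were TRBJ1-5 (log2 fold change 0.24), TRBJ1-2 (0.17) and TRBJ2-4 (-0.12). After heart extract they were TRBJ2-5 (0.28), TRBJ2-7 (0.28) and TRBJ1-1 (-0.27), and after myosin TRBJ2-5 (0.21), TRBJ1-1 (-0.24) and TRBJ1-5 (0.23).

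Sham mediastinal nodes and adjuvant axillary nodes, the 2 control groups, differed in TRBJ use within TRBV4. TRBJ1-1 held 16.6%, 13.8%, 15.9% and 13.3% of TRBV4 reads in sham nodes, against 23.6%, 18.7%, 22.8% and 19.3% in adjuvant nodes. Every sham library lay below every adjuvant library. TRBJ2-5 held 6.43%, 8.01%, 6.50% and 7.68% in sham nodes, against 5.42%, 5.59%, 4.92% and 5.37% in adjuvant nodes. TRBJ2-4 held 12.8% ± 0.618 in sham and 10.2% ± 0.576 in adjuvant nodes (SD, n = 4 each). For both of these segments, and for TRBJ2-1 and TRBJ2-2, every sham library lay above every adjuvant library. For TRBJ2-1 the gap was narrow, from 8.44% in adjuvant node 3 to 8.46% in sham node 1, and it did not pass (edgeR adjusted p = 0.0654). The share of all 240 pairs that separated in this way is not given here. By edgeR, 5 of 11 TRBJ segments passed, and 18.8% of all 240 pairs did, with 33.3% of the pairs at an unadjusted p under 0.05. TRBJ1-1 fell (log2 fold change -0.50, SE 0.0986, adjusted p = 0.00453). TRBJ2-5 rose (0.43, SE 0.0751, adjusted p = 0.00415), and so did TRBJ2-4 (0.33, SE 0.0638, adjusted p = 0.00453), TRBJ2-2 (0.32, adjusted p = 0.0325) and TRBJ2-7 (0.29, adjusted p = 0.0365). The count was 3 without sham node 4 or without adjuvant node 1.

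**Figure D2:**
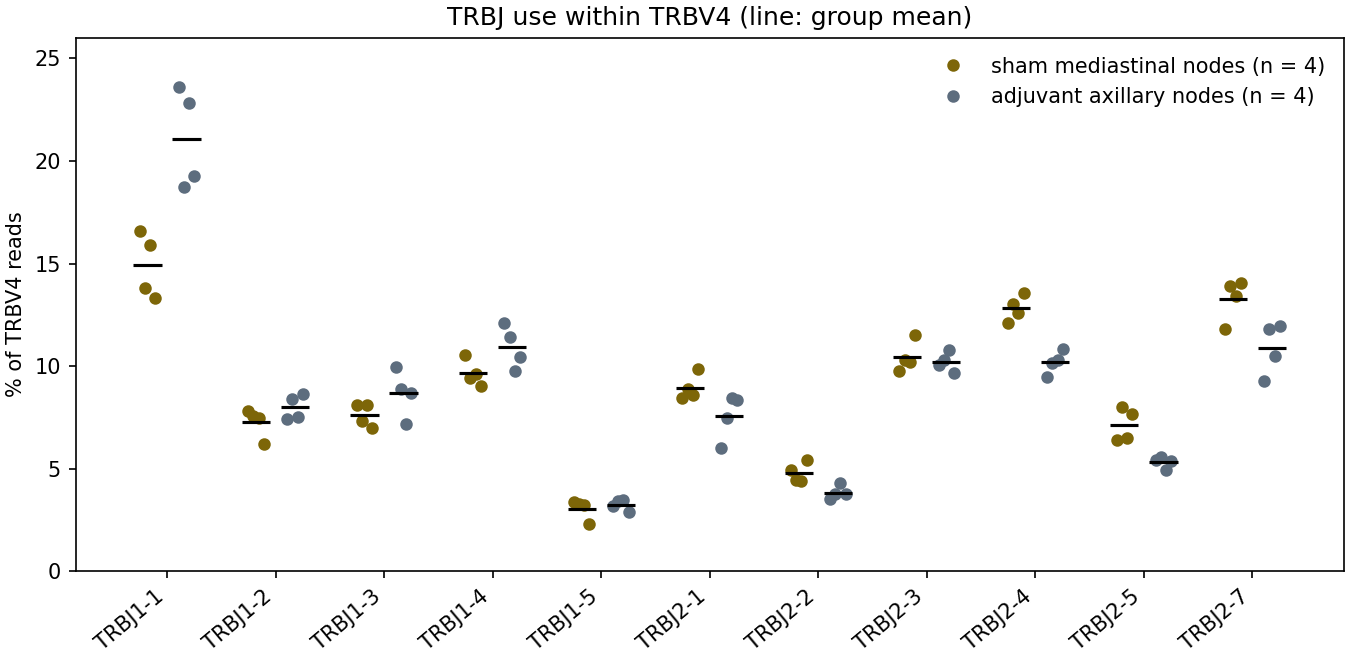
Percent of TRBV4 reads joined to each of the 11 TRBJ segments (vertical axis) in sham mediastinal nodes, left of each pair, and adjuvant axillary nodes, right of it. Points are libraries and lines are group means of 4 libraries. TRBJ1-1 is lower in every sham library, and TRBJ2-4 and TRBJ2-5 are higher in every one.

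Some other TRBV segments showed the same changes. In this comparison TRBV1 also had 5 of 11 TRBJ segments past the threshold. TRBV2, TRBV13-1, TRBV14, TRBV20 and TRBV31 had 4 of 11 each, and the remaining segments had 0 to 3. TRBJ1-1 fell in 8 of the 21 other segments tested and rose in 0, and TRBJ2-4 rose in 8 and fell in 0. TRBJ2-2 and TRBJ2-7 rose in 4 each, and TRBJ2-5 rose in 1. Across the 15 other segments of at least 0.5% of node reads, the median log2 fold change was -0.30 for TRBJ1-1 and 0.29 for TRBJ2-4. For TRBJ2-5 it was 0.15, with a range of -0.19 to 0.26. The TRBJ2-5 value of TRBV4, 0.43, was above that range, a difference from the other segments that was not tested. For TRBJ1-1 1 of the 15 segments had a value below that of TRBV4, and for TRBJ2-4 5 had a value above it.

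In hearts, TRBJ use within TRBV4 was uneven and differed from heart to heart. TRBJ1-1 held 14.7%, 40.4% and 3.21% of TRBV4 reads in hearts 1 to 3, and 15.9%, 17.0% and 15.1% in MI nodes 1 to 3. TRBJ2-3 led in heart 1 with 30.4%, TRBJ1-1 in heart 2 with 40.4%, and TRBJ1-3 in heart 3 with 24.7%. By edgeR without pairing hearts to MI nodes, TRBJ1-5 and TRBJ2-4 passed among 11 (12.5% of 208 pairs passed, and 19.7% had an unadjusted p under 0.05). With hearts and MI nodes paired by sample number, 0 of 11 passed, so neither call held once the pairing was used. The values below are from the unpaired main fit. It treats hearts and MI nodes as independent, so its p-values leave the pairing out. No TRBV4 read with TRBJ1-5 was listed in any heart, against 3.75%, 3.38% and 3.65% of TRBV4 reads in MI nodes 1 to 3. With a floor of 3 reads per heart library, the read share was at least 2438-fold lower in hearts (edgeR adjusted p = 0.00812). That bound comes from read depth, while 16, 30 and 26 CDR3s held 90% of the TRBV4 reads of hearts 1 to 3. It sets no such bound on the share of CDR3s or of cells. Other TRBV segments did have TRBJ1-5 reads in hearts, at 1.86% ± 0.753 of their reads, against 2.28% ± 0.140 in MI nodes (SD, n = 3 each). TRBJ2-4 held 4.86%, 2.58% and 2.06% in hearts, against 11.8%, 11.7% and 11.9% in MI nodes (log2 fold change -1.90, SE 0.402, adjusted p = 0.0355).

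Both calls depended on the libraries and on the model. Sample numbers were taken to pair each heart with an MI node. With the pair as a block in edgeR 0 of 11 passed, with a smallest adjusted p of 0.581. Without any one of the MI nodes 0 passed as well. Counting distinct CDR3s in place of reads also left 0. In each heart, few CDR3s made up most of the TRBV4 reads, as described next. Leaving out the 10 most abundant TRBV4 CDR3s of each library lowered the number of calls, as given in the last section. The part of single CDR3s was not tested further.

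The third question was how TRBV4 reads were spread over CDR3s. In hearts 1 to 3, the 16, 30 and 26 most abundant TRBV4 CDR3s held 90% of the TRBV4 reads. In MI nodes 1 to 3 this took 9790, 12489 and 6410 CDR3s, and in sham nodes 4603, 4666, 10084 and 1463. At 126230 drawn TRBV4 reads per library, hearts had 197, 345 and 293 distinct TRBV4 CDR3s, against 15390, 18840 and 10419 in MI nodes. The 10 most abundant held 63.2% ± 6.62 of TRBV4 reads in hearts and 1.65% ± 0.276 in MI nodes (SD, n = 3 each). The groups did not overlap, and the exact two-sided permutation test gave p = 0.10 for each (0.514 adjusted over 12 tests), the smallest that 3 against 3 allows. With 5000 sorted cells for a heart and 500000 for a node, cell number and tissue cannot be told apart.

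**Figure D3:**
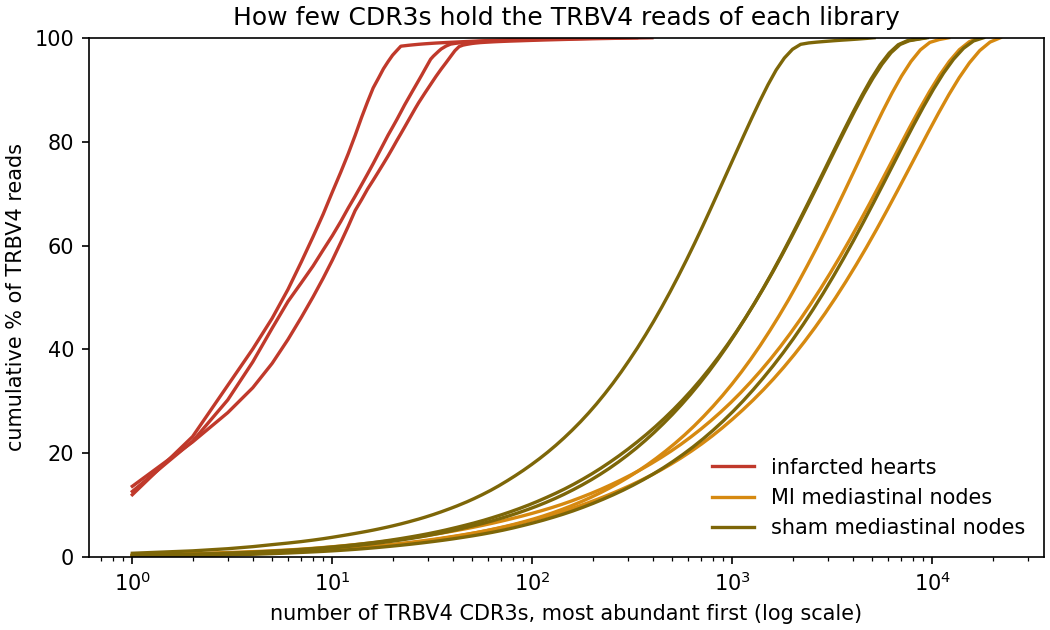
Cumulative percent of a library's TRBV4 reads (vertical axis) held by its most abundant TRBV4 CDR3s (horizontal axis, log scale), 1 line per heart, MI node or sham node library. The 3 hearts reach 90% with 16 to 30 CDR3s, while the mediastinal nodes need 1463 to 12489.

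Most of the distinct heart CDR3s were close relatives of an abundant one. Of 925 heart TRBV4 entries, 761 differed by 1 substitution from a TRBV4 CDR3 of the same library, TRBJ segment and length that had at least 20 times their reads, a threshold chosen after seeing the data. They held 1.497%, 1.33% and 1.30% of TRBV4 reads in hearts 1 to 3. In the nodes such entries made up 8.35% to 58.8% of TRBV4 entries and 0.888% to 1.62% of TRBV4 reads. Without them, hearts 1 to 3 had 32, 68 and 64 TRBV4 entries. What these entries are was not tested.

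No difference between node groups passed in these measures. At equal reads, MI nodes had 17122, 21738 and 11999 distinct TRBV4 CDR3s and sham nodes 9188, 9392, 17955 and 5062, so the groups overlapped (exact two-sided permutation p = 0.171, adjusted over 12 tests 0.514). Nodes after antigen had 7595 ± 2364 (SD, n = 5) and adjuvant nodes 7343 ± 2062 (SD, n = 4), with an exact permutation p of 0.849. Sham nodes had 10432.5 ± 5419 and adjuvant nodes 7294 ± 2068 (SD, n = 4 each), with an exact permutation p of 0.371. None of the 12 tests of distinct CDR3s, of the share of the 10 most abundant or of mean CDR3 length passed. The smallest exact permutation p that the group sizes allow was 0.0286 for MI against sham and for sham against adjuvant nodes. For antigen against adjuvant nodes it was 0.00794. After adjustment over 12 tests a single difference at these values could not pass, however large, so these tests cannot show that the node groups were alike.

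The leading CDR3 of each heart held a similar part of its TRBV4 reads. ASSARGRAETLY had 15189 reads in heart 1, which was 12.0% of the TRBV4 reads (95% Wilson interval 11.9% to 12.2%). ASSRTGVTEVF had 40221 reads in heart 2 (13.7%, interval 13.5% to 13.8%), and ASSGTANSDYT had 36904 reads in heart 3 (12.7%, interval 12.5% to 12.8%). In node libraries the most abundant TRBV4 CDR3 held between 0.154% of TRBV4 reads, in sham node 3, and 0.764%, in sham node 4. There it was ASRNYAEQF, joined to TRBJ2-1, with 5229 reads. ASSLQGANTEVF led in both sham node 1 and adjuvant node 3, with 1913 and 3611 reads.

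No TRBV4 CDR3 was listed in more than 1 heart. Of the 925 heart CDR3s, 217 were also listed with TRBV4 in at least 1 node, and these held 67.6%, 71.8% and 69.6% of the TRBV4 reads of hearts 1 to 3. Among the 164 entries left without the near relatives, 78 were in a node. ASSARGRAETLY had 78 reads in MI node 1 and 2 reads in adjuvant node 4 and was listed in no other node. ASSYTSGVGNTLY, the second of heart 3, had 28095 reads there and 289 reads in MI node 3, and was in no other node. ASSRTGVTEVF, which led in heart 2, had 43 reads in MI node 3 and 45 in sham node 1, and was in no other node. Of the nodes, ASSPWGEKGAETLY of heart 1 was only in sham node 4, with 117 reads. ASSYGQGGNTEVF of heart 1 was only in MI node 2, with 72 reads, and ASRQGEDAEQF of heart 1 only in MI node 1, with 131 reads. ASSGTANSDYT had 180 reads in MI node 3 and was listed in 6 nodes, 2 of each of the MI, sham and axillary sets. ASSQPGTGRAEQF, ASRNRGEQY, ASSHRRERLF and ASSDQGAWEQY were listed with TRBV4 in no node library. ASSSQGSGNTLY was listed with TRBV4 in 11 nodes, with up to 630 reads. For all CDR3s of this paragraph only listings with TRBV4 were counted, not those with other TRBV segments.

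In each heart, the CDR3s listed with TRBV4 in MI nodes held a larger median part of the TRBV4 reads than those listed with it in sham or axillary nodes. Ranges of MI and axillary nodes overlapped in hearts 1 and 3, and those of MI and sham nodes in heart 3. In heart 1, MI nodes listed the CDR3s of 12.3% to 31.4% of the TRBV4 reads, sham nodes 3.46% to 11.2%, and axillary nodes up to 14.9%. In heart 2 the medians were 43.7% in MI nodes, 24.4% in sham nodes, 25.6% in myosin nodes, 14.1% in heart extract nodes and 15.2% in adjuvant nodes. In heart 3 they were 44.3%, 25.3%, 28.5%, 15.9% and 13.3% in the same order, so myosin nodes were above sham nodes in both. These differences were not tested. The number of CDR3s moved with them, since MI nodes listed 12055 to 21845 TRBV4 CDR3s each, sham nodes 5109 to 18011 and axillary nodes 4462 to 9627, and its part in the coverage was not tested.

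In the nodes, 110942 TRBV4 CDR3s were listed, 80.3% of them in 1 library only and 7 in all 16. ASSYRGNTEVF had a median of 1067 reads per node, and a range of 119 reads in sham node 2 to 1929 in myosin node 2. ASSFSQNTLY was the steadiest of the 6 shared CDR3s shown above, with 501 to 1782 reads. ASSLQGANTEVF had 5 reads in heart extract node 3 and 3611 in adjuvant node 3. These sequences were not exclusive to TRBV4. Across all 19 libraries, hearts included, TRBV4 held 83.5% of the reads of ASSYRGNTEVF and 28.4% of those of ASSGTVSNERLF. Both were also listed with 10 other TRBV segments. Of the 7, only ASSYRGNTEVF was listed with TRBV4 in a heart, with 4 reads.

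TRBV4 CDR3s differed from those of the other segments in their first residues and in length. The residues ASSY opened 18.2% ± 0.939 of TRBV4 reads in nodes and 0.380% ± 0.0556 of the reads of the other segments (SD, n = 16). In hearts ASSY opened 19.5% ± 9.07 of TRBV4 reads (SD, n = 3), and 4 of the 15 heart CDR3s shown above start with it. ASSQ opened 2.93% ± 0.305 of TRBV4 reads in nodes, against 20.5% ± 1.26 of the reads of the others. A CDR3 of 12 residues made up 36.8% ± 0.955 of TRBV4 reads in nodes, against 29.5% ± 0.360 for the others, and lengths of 13 made up 20.1% ± 1.06 and 25.8% ± 0.398.

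TRBV4 CDR3s averaged 11.84 ± 0.0334 residues in nodes and those of all other reads 12.12 ± 0.0185 (SD, n = 16), a difference of -0.28 that ran from -0.32 to -0.21. It was below 0 in 16 of 16 node libraries, and the exact two-sided sign-flip test gave p = 3e-05, the smallest it can give. The same test was not run for the other segments, so this p-value shows nothing particular to TRBV4. The call depends on how the other segments are weighted. Against the mean of the other segments' means, each counted once, TRBV4 was 0.08 residues longer (exact sign-flip p = 0.00110). Among the 16 segments of at least 0.5% of node reads, TRBV4 ranked 5 from the shortest, with TRBV15 the shortest at 11.26 and TRBV5 the longest at 12.67. In hearts 1 to 3 the difference in mean length from the other reads was 0.16, -0.70 and -0.33.

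**Figure D4:**
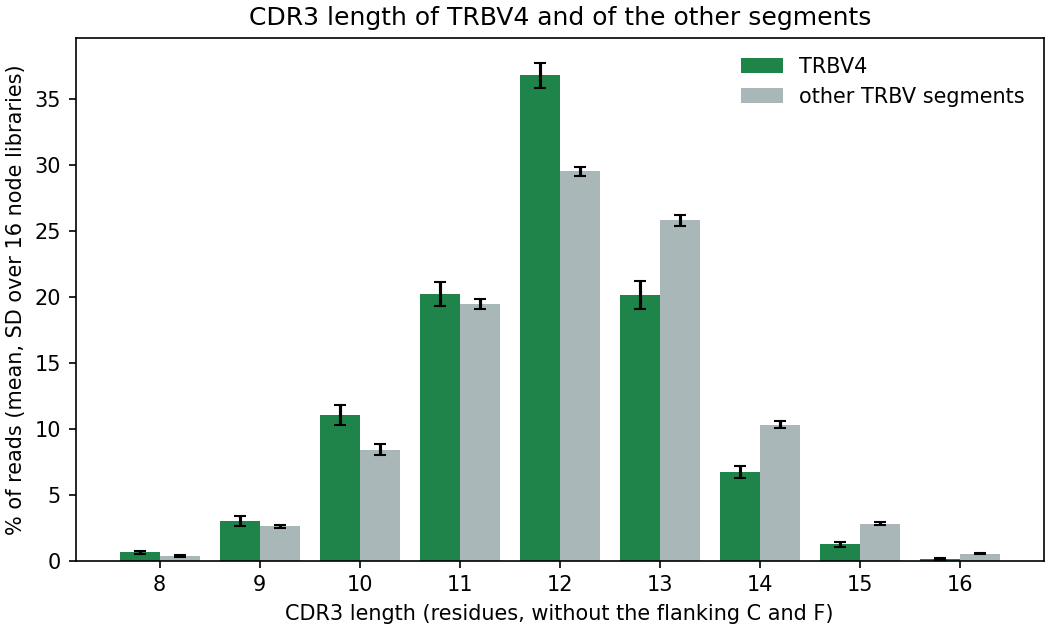
Percent of reads (vertical axis, from 0) by CDR3 length in residues (horizontal axis) for TRBV4 and for all other TRBV segments. Bars are means over 16 node libraries with their SD. At 12 residues TRBV4 reaches 36.8% and the others 29.5%.

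The last question was whether TRBV4 entries stood alone in their library. A companion entry is one with the same CDR3 and the same TRBJ segment in the same library, listed with another TRBV segment. TRBV15, which encodes Vβ12, was the segment whose reads most often had a TRBV4 companion. Of its reads, 99.8%, 89.3% and 99.4% in hearts 1 to 3 and a median of 74.7% in the 16 nodes (range 68.0% to 87.0%) had one. TRBV3 followed with a median of 21.1% in nodes and TRBV14 with 10.3%, while TRBV1 had 0 such reads in any library. In hearts, the median was 14.3% for TRBV5 and 0% for TRBV14 and TRBV19.

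**Figure D5:**
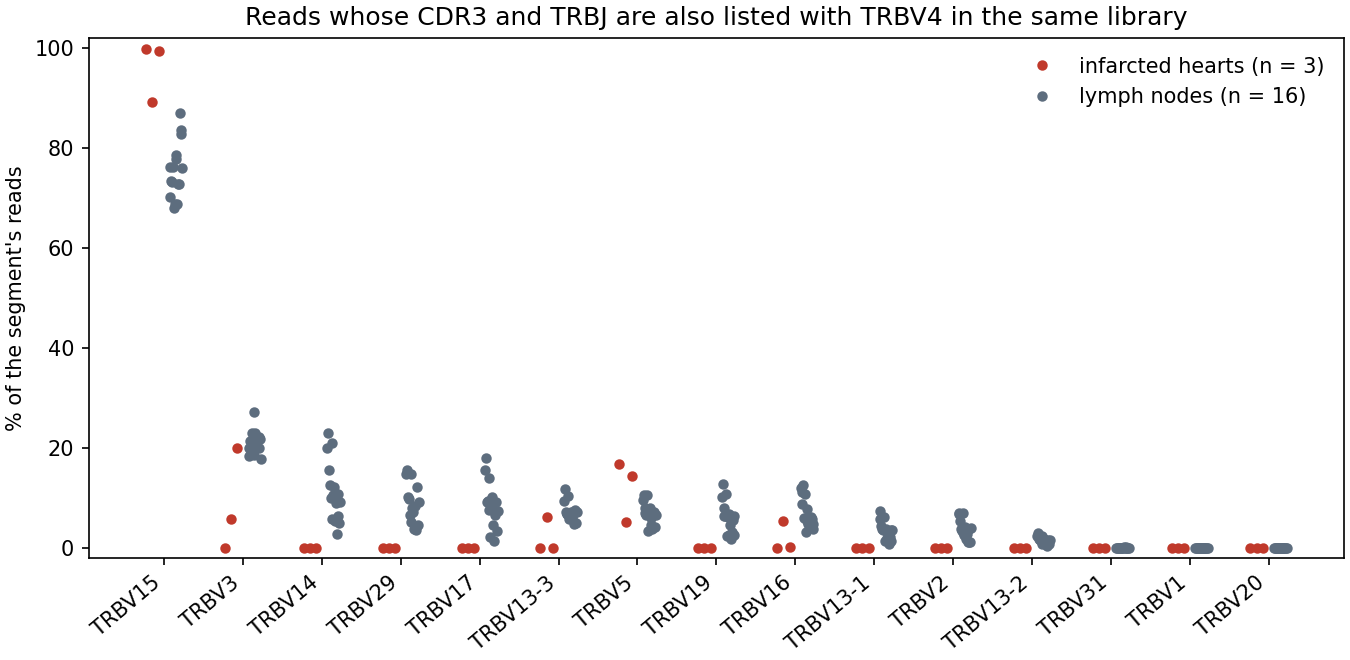
Percent of each segment's reads (vertical axis) whose CDR3 and TRBJ segment are also listed with TRBV4 in the same library, for segments of at least 0.5% of node reads. Red points are the 3 hearts and grey points the 16 nodes. TRBV15 lies at 68.0% or above in every library, and TRBV3 comes next in the nodes.

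Summed over the shared entries of a library, TRBV4 had more reads than TRBV15. It had 3.05, 2.65 and 2.12 times the reads in hearts 1 to 3, and 2.95 to 4.04 times in nodes. The value of heart 1 rests on 1 entry, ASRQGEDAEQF, which held 94.1% of its shared TRBV15 reads. Without the entry with the most TRBV15 reads in each library, a setting chosen after seeing the data, TRBV4 had 46.8, 3.48 and 2.65 times the reads in hearts 1 to 3 and 2.97 to 4.09 times in nodes. Companions of TRBV15 held 76.3%, 32.9% and 34.6% of the TRBV4 reads in hearts 1 to 3 and 20.9% to 30.3% in nodes. The entries went both ways. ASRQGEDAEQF, rank 4 in heart 1, had 8830 reads with TRBV4 and 29732 with TRBV15, while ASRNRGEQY in heart 2 had 14110 and 3310. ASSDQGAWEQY in heart 3 had 21285 and 3820. TRBV15 itself was a minor segment, at 0.932% to 1.30% of heart reads and 0.668% to 1.07% of node reads.

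Counting the TRBV15 companions as TRBV4, an alternative chosen after seeing the data, raised the TRBV4 share and left hearts below mediastinal nodes and mediastinal below axillary nodes. Hearts then had 6.50%, 7.53% and 6.61%, MI nodes 8.26%, 9.49% and 8.64%, mediastinal nodes in all 8.26% to 9.49%, and axillary nodes 9.64% to 11.0%. Without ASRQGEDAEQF among the companions, heart 1 had 5.28%. How the segment was assigned upstream is not stated in the labels, and the part of the assignment in these companions was not tested.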

How the data were processed

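The deposited tables hold whole-number read counts per CDR3, TRBV and TRBJ, made by the sequencing provider from multiplex PCR of TRB transcripts, per the labels' protocols. The lowest deposited count was 2, and a CDR3 that is not listed may have had 1 read, none, or been removed upstream. The labels mention no molecular identifiers. Aligner, error filter and genome build: not given in the sources used here. TRBV4 and the lists were chosen with earlier results of these data known.

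Reads were summed per TRBV segment and per TRBV-TRBJ pair and tested with edgeR 4.0.16 (quasi-likelihood, robust, legacy settings) in R 4.3.3. The offset was the library total for segments and the TRBV total for pairs. All 16 nodes shared a fit, and hearts were compared with MI nodes in a fit of 6 libraries, with pairs of at least 100 reads. P-values were adjusted by Benjamini-Hochberg over all features of a comparison, at 0.05. DESeq2 1.42.0 was an alternative. CDR3 measures were compared by exact permutation after drawing equal TRBV4 reads, and CDR3 length by exact sign flips. Named segments were the 3 most and 2 least alike in read share, the TRBJ segments past the threshold or nearest to it, and the most and least paired. Named CDR3s were the 5 most abundant per heart, the most abundant per node and those shared by all nodes. CDR3s over 14 residues are not printed. The scripts were tested on simulated data.

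Over 1988 CDR3s, deviations of same-numbered hearts and MI nodes from their group means correlated at 0.23, 0.21 and 0.30, and those of other combinations at -0.19 to -0.02, so numbers were taken to pair them. Deviations from a group mean cancel over its libraries, so the negative values follow in part from the positive ones. The main edgeR fit and the permutation tests of hearts against MI nodes did not use this pairing. Node groups were not treated as paired. Alternatives were TMM factors, a minimum of 10 reads per entry, segments of at least 0.1% of reads, distinct CDR3s, 2-group fits, the sample number as a block, and each library left out in turn.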

Additional observations from a re-analysis of the deposited data

Results flagged for a closer look

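Of 42 sets of 4 libraries examined (sham and adjuvant nodes, over the levels and within-TRBV4 measures given above), 1 held a library far from the other 3 by Dixon's ratio. TRBJ1-5 made up 2.29% of the TRBV4 reads of sham node 4, against 3.24% to 3.38% in the other sham nodes, with a gap of 0.867 of the range and a critical value of 0.829. Chance gives such a gap in about 1 in 20 sets. Sham node 4 also had the fewest TRBV4 CDR3s of the mediastinal nodes, 5109, and its part in the TRBJ1-5 value was not tested.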

How the results depend on the processing

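Over 21 results, 262 alternative values were computed, of which 236 kept the direction and the side of the threshold, or the count within 1.5 times. A difference that passed in neither setting counted as kept if its sign held, so the 236 include results that never passed. For TRBJ calls of hearts against MI nodes, 6 values moved and 9 were kept. Causes of the changes were not tested. Counting distinct CDR3s turned the log2 difference in TRBV4 level to -0.0185 for MI against sham nodes and to 0.0238 for heart extract against adjuvant nodes. With each library left out, the levels ran over -0.0146 to 0.0935 for MI against sham and over -0.0878 to 0.0333 for myosin against adjuvant nodes. TRBJ calls within TRBV4 came to 1 for heart extract against adjuvant nodes when only the TRBV4 pairs were fitted. For sham against adjuvant nodes they came to 3 with entries of at least 10 reads, to 7 with distinct CDR3s and to 3 to 6 with a library left out. For hearts against MI nodes they came to 0 with distinct CDR3s, to 1 without the 10 most abundant CDR3s, to 0 with the replicate block and to 0 to 3 with a library left out. The replicate block changed no call between node groups, where numbers do not pair samples. Leaving out a library moved differences of antigen minus adjuvant nodes over -431 to 1028 distinct CDR3s and over -0.591 to 0.0136 percentage points for the 10 most abundant. Mean CDR3 length of sham minus adjuvant nodes ran over -0.0162 to 0.0133 residues, and that of hearts minus MI nodes over -0.319 to 0.202, or 0.00308 over distinct CDR3s. The length difference of TRBV4 from other segments turned to 0.0842 against the mean of their means. Read depth limits what can be said of CDR3s under 2 reads, which are not listed.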
